A study of Homo sapiens with 12 samples.

Results

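The exons examined here are the cassette exons that 4 genes of heterogeneous nuclear ribonucleoproteins carry themselves, namely HNRNPA1, HNRNPA2B1, HNRNPC and HNRNPD. They are all the events of these genes in the deposited exon inclusion tables, found by matching the middle exon of each event to GENCODE release 29 exons on GRCh38 (hg38). There are 9 such events of 8712 in all: 1 in HNRNPA1, 1 in HNRNPA2B1, 5 in HNRNPC and 2 in HNRNPD. The study sequenced mRNA from MCF10A, a non-tumorigenic human breast epithelial line, in 12 libraries that form 6 groups of 2. The groups were cells with siRNA-resistant wild-type TIP60 under TIP60 siRNA, cells with siRNA-resistant catalytically dead TIP60 under TIP60 siRNA, and empty-vector cells under TIP60 siRNA, each with its counterpart under control siRNA, all harvested 72 h after transfection. The gene of TIP60, a lysine acetyltransferase, is KAT5, and each line carried its construct or vector stably. The labels do not say whether the lines are clones or pools, nor whether replicates came from separate cultures, so the p-values below measure only the spread between these libraries.

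The hnRNPs coat nascent pre-mRNA and, among other roles, repress or promote the use of exons and splice sites. Several of them act on their own transcripts, and the exons studied here are textbook cases of forms that differ by an alternative exon: A2 and B1 of HNRNPA2B1, A1 and A1-B of HNRNPA1, and the AUF1 proteins of HNRNPD. HNRNPC encodes the C1 and C2 proteins, which bind uridine tracts and are known for keeping cryptic exons in Alu elements out of mRNA.

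Under TIP60 siRNA, the 26-nt exon in the 5′ UTR of HNRNPC fell by 0.0983 ± 0.00927 in inclusion (SE; mean over the 3 lines; limma adjusted p = 0.00763). The 156-nt coding exon of HNRNPA1 was lower in each TIP60-siRNA library than in every control-siRNA library, while the 36-nt coding exon of HNRNPA2B1 and the 57-nt coding exon of HNRNPD were higher in each of the 6 pairs of libraries with the same construct and replicate number. On the inclusion scale these 3 passed the test only in the fit that takes the replicate number as a block. The other HNRNPC events and the 147-nt exon of HNRNPD did not pass in either fit.

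Of these exons, 3 change the protein by whole codons, and the spliced junctions of HNRNPA2B1 and HNRNPD show what each of their forms reads. The HNRNPA1 exon (chr12:54283079-54283234, plus strand) is exon 8 of HNRNPA1-202 and adds 52 codons to the glycine-rich C-terminal part of the protein, for 372 residues with the exon and 320 without it. The HNRNPA2B1 exon (chr7:26197831-26197866, minus strand) is exon 2 of HNRNPA2B1-201 and adds 12 codons just behind the start codon, for 353 residues with it (B1) and 341 without it (A2). The HNRNPD exon (chr4:82371528-82371584, minus strand) is exon 2 of HNRNPD-201 and adds 19 codons, for 355 residues with it and 336 without it. Capitals mark bases of the cassette exon, lower case the neighbouring exons, all from GENCODE transcripts on GRCh38 and written 5′ to 3′; the upstream side of HNRNPA2B1 holds only its 6 coding bases.
HNRNPA2B1 upstream exon into the cassette exon: atggagAAAACTTTAGAAACT
HNRNPA2B1 cassette exon into the downstream exon: TTGGAGAGGAAAAAGagagaaaaggaacag
HNRNPA2B1 with the exon skipped: atggagagagaaaaggaacag
HNRNPD upstream exon into the cassette exon: cgaggaggatgaaggCCATTCAAACTCCTC
HNRNPD cassette exon into the downstream exon: ACAGCGGGAAGAATGgaaaatgtttatagg
HNRNPD with the exon skipped: cgaggaggatgaagggaaaatgtttatagg

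Inclusion is MISO's estimate of what fraction of an event's mRNA has the cassette exon, with 0 for none and 1 for all. It corrects for how many read positions each form offers and so differs from the plain share of reads. Libraries numbered 1 held 1983221 to 2280488 reads that fitted a form of any event, and those numbered 2 held 1277953 to 1566296. Reads that fitted neither form of their event were 50.1% to 53.2% of event reads in libraries numbered 1 and 64.5% to 65.7% in those numbered 2, so the sets stand apart and each result is also given within them. Reads specific to the KAT5 form with its cassette exon numbered 0 to 9 under TIP60 siRNA and 8 to 37 under control siRNA, on average 2.01 and 9.73 per 1000000 fitting reads of the library (RPM; n = 6 each). Reads specific to the form without it numbered 36 to 4543 in cells with a resistant construct and 0 to 18 in empty-vector cells. Of 11 epithelial markers 6 had an event, with a summed level of 2989 to 5201 RPM under TIP60 siRNA and 2721 to 4424 RPM under control siRNA. This sum was higher under TIP60 siRNA in every pair but replicate 2 of wild-type TIP60 cells (3701 against 4386 RPM). The 2 of 7 mesenchymal markers with an event, FN1 and ZEB1, summed to 35.4 to 2478 RPM and 21.9 to 818 RPM in these arms and were higher under TIP60 siRNA in all 6 pairs; their part in the results below was not tested. Of 5 immune markers only CD74 had an event, at 0 to 0.783 RPM under TIP60 siRNA and 0 under control siRNA.

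Of the 9 events, 8 had at least 10 reads specific to 1 form in every library and were tested among 2695 events. In the averaged comparison, limma without the block called 1 of these 8, against 2.15% of all tested events. The fit with the replicate block called 4 of 8, against 4.27%. The 6 TIP60-siRNA libraries did not overlap the 6 control-siRNA libraries for 2 of 8, against 3.04%. They did not overlap within either replicate set, in the same direction in both, for 4 of 8, against 5.83%. All 6 pairs differed in the same direction for 5 of 8, against 11.8%. The median size of the difference was 0.0758 over the 8 events and 0.0183 over all tested events. These shares are no test of the genes as a set. The genes were chosen with earlier results of these data known, and the HNRNPC events share reads or exons. Depth was also unlike: the 8 events had medians of 88 to 2313.5 form-specific reads over the libraries. Over all listed events, the library medians were 13 to 27.

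**Figure D1:**
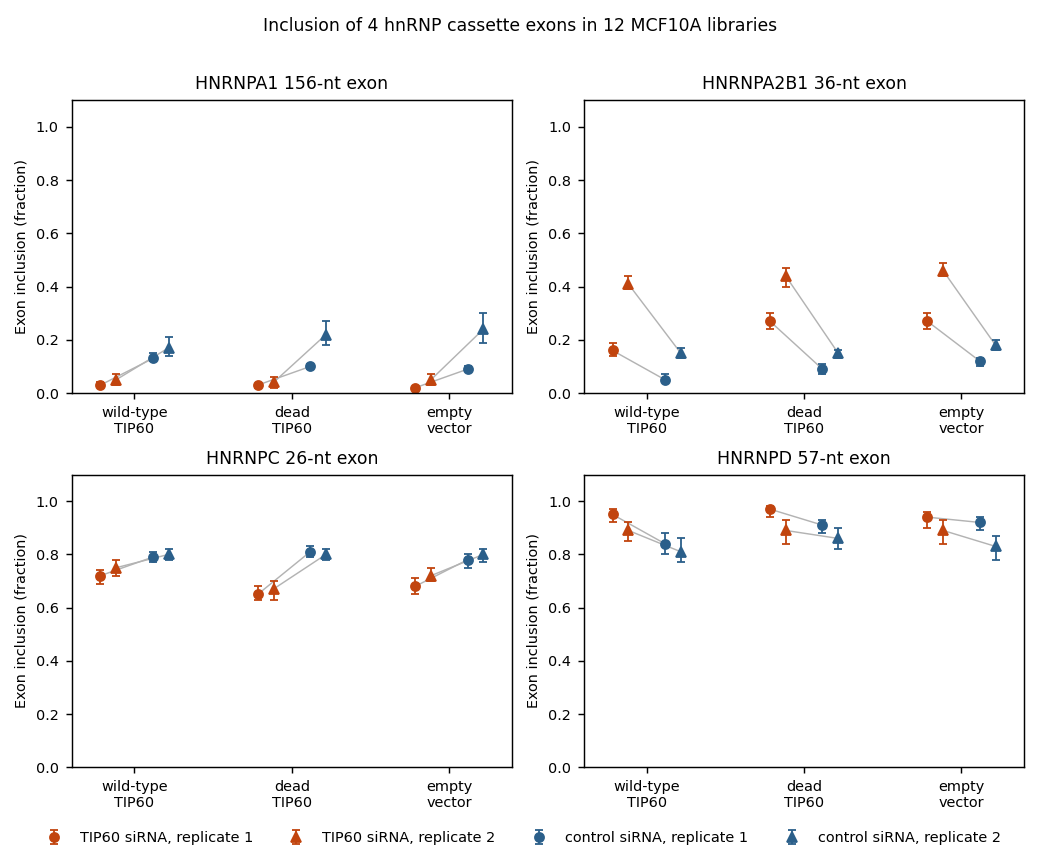
Inclusion (fraction, y axis from 0) of 4 exons in each of 12 libraries, by construct and siRNA, with circles for replicate 1, triangles for replicate 2, bars for the authors' interval of each level and grey lines joining libraries of the same construct and number. HNRNPA1 and HNRNPC are lower and HNRNPA2B1 and HNRNPD higher in the TIP60-siRNA library of each pair.

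HNRNPA1 encodes hnRNP A1, which binds UAG-containing RNA and represses exons, and whose longer form A1-B carries the 156-nt exon. Under TIP60 siRNA its inclusion was 0.03 and 0.05 in wild-type TIP60 cells (replicates 1 and 2), 0.03 and 0.04 in catalytically dead TIP60 cells, and 0.02 and 0.05 in empty-vector cells. Under control siRNA it was 0.13 and 0.17, 0.1 and 0.22, and 0.09 and 0.24 in the same lines. Every TIP60-siRNA library thus lay below every control-siRNA library, in lines with and without a resistant construct.

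The averaged HNRNPA1 difference was −0.122 ± 0.0309 (SE), with a limma adjusted p of 0.134 without the block and 0.036 with it. With the block it passed in only 1 of 12 fits that each left out a library (adjusted p from 0.0244, without replicate 1 of empty vector with control siRNA, to 0.119), so that leaving out any other library ended the call. On the log2 odds scale, which weighs changes near 0 more, the same libraries gave −2.28 and an adjusted p of 0.0438 without the block. As a plain share of form-specific reads the difference was −0.357, and it did not pass without the block (limma adjusted p = 0.137). An exact two-sided sign-flip test over the 6 pairs gave p = 0.03125, the smallest it can give, for this exon as for those of HNRNPA2B1, HNRNPC (26 nt) and both of HNRNPD.

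Reads specific to the form with the exon numbered 177 and 43 in wild-type TIP60 cells, 117 and 29 in dead TIP60 cells and 78 and 37 in empty-vector cells under TIP60 siRNA. Under control siRNA they numbered 552 and 169, 448 and 228, and 522 and 157. Scaled to RPM, the ratio of TIP60 siRNA to control siRNA was 0.156 to 0.291 in the 6 pairs (median 0.241). For reads specific to the form without the exon, the ratio was 1.02 to 1.58 (median 1.11). Reads of the form with the exon were thus below their control in all 6 pairs, and reads of the form without it in none.

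Depth differed sharply between the sets for HNRNPA1. Form-specific reads numbered 796 to 1280 in replicate 1 and 116 to 320 in replicate 2. Reads at the event that fitted neither form made up 70.3% to 74.6% in replicate 1 and 96.3% to 98.5% in replicate 2. The mean difference was −0.08 within replicate 1 and −0.163 within replicate 2 (3 pairs each; the exact test over 3 pairs cannot go below 0.25). GENCODE annotates 74 numbered pseudogenes of HNRNPA1, 9 of HNRNPC and 2 of HNRNPD, and how reads shared with such copies were counted is not given in the sources used here, so the levels of these genes are uncertain to that extent.

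**Figure D2:**
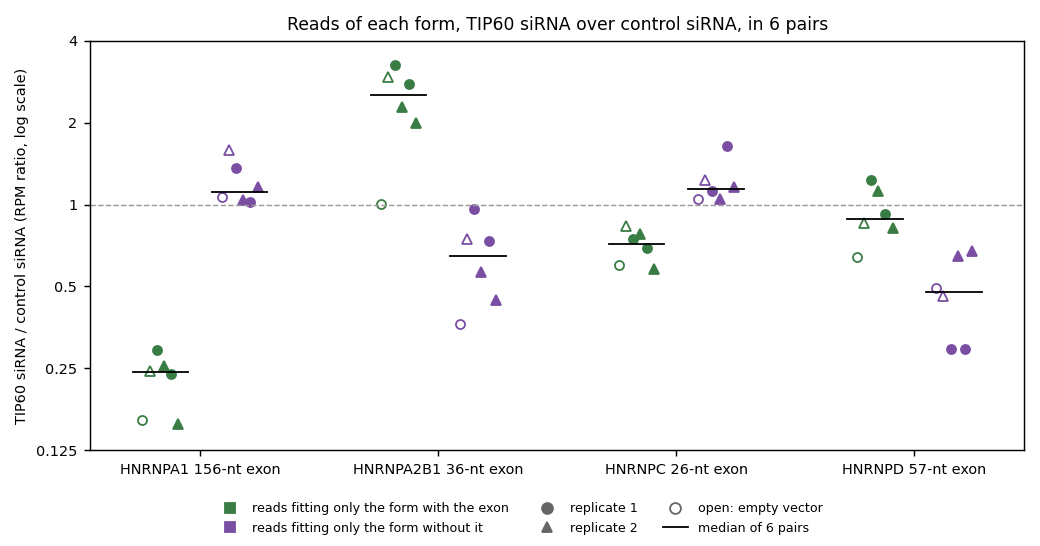
Ratio of RPM under TIP60 siRNA to RPM under control siRNA (log scale) for reads fitting only the form with the exon (green) and only the form without it (purple), in 6 pairs of libraries per exon, with open symbols for empty vector and bars at the median. The HNRNPA1 form with the exon has ratios of 0.156 to 0.291, and the HNRNPA2B1 and HNRNPD forms without the exon are below 1 in all 6 pairs.

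HNRNPA2B1 encodes hnRNP A2 and the less abundant B1, which share their RNA-binding domains and differ by the 12 residues near the N-terminus that the 36-nt exon adds. Under TIP60 siRNA the exon's inclusion was 0.16 and 0.41 in wild-type TIP60 cells, 0.27 and 0.44 in dead TIP60 cells, and 0.27 and 0.46 in empty-vector cells. Under control siRNA it was 0.05 and 0.15, 0.09 and 0.15, and 0.12 and 0.18. Within each replicate set the TIP60-siRNA libraries were all above the control-siRNA libraries, but over all 12 the arms overlapped, since the lowest TIP60-siRNA value (0.16) lay under the highest control value (0.18).

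The averaged HNRNPA2B1 difference was 0.212 ± 0.0586 (SE) without the block (limma adjusted p = 0.167) and 0.212 ± 0.0286 with it (0.0175). A difference of at least that size was seen for 54 of the 2695 tested events, this one included. For the averaged differences of HNRNPA1, the 26-nt HNRNPC exon and the 57-nt HNRNPD exon, the same count was 181, 270 and 531. The HNRNPA2B1 difference was 0.147 within replicate 1 and 0.277 within replicate 2. With the block, adjusted p ran from 0.0217 to 0.0579 when 1 library was left out, and the call ended without either control-siRNA library of wild-type TIP60, either TIP60-siRNA library of dead TIP60, replicate 2 of empty vector with control siRNA or replicate 2 of dead TIP60 with control siRNA.

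Reads of the HNRNPA2B1 form with the exon were above their control in all 6 pairs, and those of the form without it below. Some of these differences were very small, and they were not tested. RPM of reads fitting only the form with the exon stood at 1.01 to 3.25 times the control level (median 2.52), the lowest ratio being that of empty vector in replicate 1. RPM of reads fitting only the form without it stood at 0.362 to 0.965 times (median 0.649). In dead TIP60 cells, for example, 309 and 514 reads fitted only B1 under TIP60 siRNA, against 102 and 317 under control siRNA, and 506 and 411 reads fitted only A2, against 630 and 1131. Form-specific reads of this event numbered 592 to 1336 in replicate 1 and 925 to 1578 in replicate 2, so it was deeply covered in both.

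HNRNPC gave 5 events, of which 3 concern exons of its 5′ UTR and 2 concern a single coding exon with a pair of start sites. The 26-nt exon (chr14:21263311-21263336, minus strand) was in 19 annotated transcripts, untranslated in 18 of them and in 1 without a coding sequence. In HNRNPC-205, where it is exon 2, it lengthens the 5′ UTR to 207 nt with the exon, against 181 nt without it, and it holds no ATG. The coding sequence is the same in both forms.

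Under TIP60 siRNA the 26-nt HNRNPC exon had an inclusion of 0.72 and 0.75 in wild-type TIP60 cells, 0.65 and 0.67 in dead TIP60 cells, and 0.68 and 0.72 in empty-vector cells. Under control siRNA it had 0.79 and 0.8, 0.81 and 0.8, and 0.78 and 0.8. The arms did not overlap, and the control libraries of all lines lay within 0.03 of each other. The averaged difference of −0.0983 was of like size within both sets, at −0.11 in replicate 1 and −0.0867 in replicate 2. It stayed past the threshold without any single library (limma adjusted p from 0.00847 to 0.0391) but not on the log2 odds scale without the block (0.0782).

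Reads fitting only the HNRNPC form with the 26-nt exon numbered 567 to 1386 under TIP60 siRNA and 1063 to 1688 under control siRNA, and those fitting only the form without it 228 to 413 and 223 to 279. The RPM ratio in pairs was 0.581 to 0.837 (median 0.719) for the form with the exon and 1.04 to 1.64 (median 1.14) for the form without it. As for HNRNPA1, the form with the exon was below its control and the form without it above its control in every pair.

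By line, the siRNA difference of the 26-nt HNRNPC exon was −0.06 in wild-type TIP60 cells, −0.145 in dead TIP60 cells and −0.09 in empty-vector cells (SE 0.016 each). Without the block none passed (limma adjusted p of 0.673, 0.0551 and 0.221), where 0% of tested events passed in wild-type TIP60 cells and 0.0371% each in dead TIP60 and in empty-vector cells. With the block that of dead TIP60 cells passed (limma adjusted p = 0.0105), as did 0.371% of tested events there, and those of wild-type TIP60 and empty-vector cells did not (0.168 and 0.0652, with 0.148% of events passing in each). That call ended when replicate 1 of dead TIP60 with control siRNA or replicate 2 of dead TIP60 with TIP60 siRNA was left out. The effect in dead TIP60 cells minus that in wild-type TIP60 cells was −0.085 ± 0.0227 (SE), with an unadjusted p of 0.00718 and an adjusted p of 1 in limma, so that the lines were not shown to differ.

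A pair of further 5′ UTR exons of HNRNPC was hardly used where reads sufficed. The 168-nt exon (chr14:21262601-21262768), found in HNRNPC-202 alone, holds 5 ATG triplets and had an inclusion of 0.01 to 0.06. Its averaged difference was 0.005 ± 0.0155 (SE; limma adjusted p = 1), and it rested on 133 to 227 form-specific reads in replicate 1 and 25 to 43 in replicate 2. The 163-nt exon (chr14:21263667-21263829), untranslated in 4 transcripts and holding 3 ATG triplets, failed the read minimum. In replicate 1 its inclusion was 0.01 to 0.04 on 63 to 165 form-specific reads. In replicate 2 only 5 to 18 form-specific reads remained and none fitted the form without the exon. The deposited levels of 0.45 to 0.64 there come with intervals reaching from 0.07 to 0.98 and cannot be read as a level.

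The 2 coding events of HNRNPC share an end and differ by 3 nt at the start, 158 nt (chr14:21211406-21211563) and 161 nt (chr14:21211406-21211566), and their reads largely coincide. Neither length is a multiple of 3, and without the exon the reading frame of HNRNPC-202 would end after 231 residues, against 306 with the 161-nt exon and 305 in HNRNPC-219 with the 158-nt one. Each event sets its own version of the exon against skipping. Its level thus tells how rare skipping was and not which start site was used. Skipping was rare in both events. The 158-nt event had 0.95 to 1 and the 161-nt event 0.99 to 1. Reads skipping the exon numbered 2 to 8 per library under TIP60 siRNA and 0 to 3 under control siRNA. The averaged differences were −0.01 ± 0.00859 and −0.00333 ± 0.00154 (SE), with limma adjusted p of 0.822 and 0.471 without the block and 0.263 and 0.191 with it. The 26-nt exon is also a flanking exon of the 2 rare 5′ UTR events, so the HNRNPC events are not independent of each other.

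**Figure D3:**
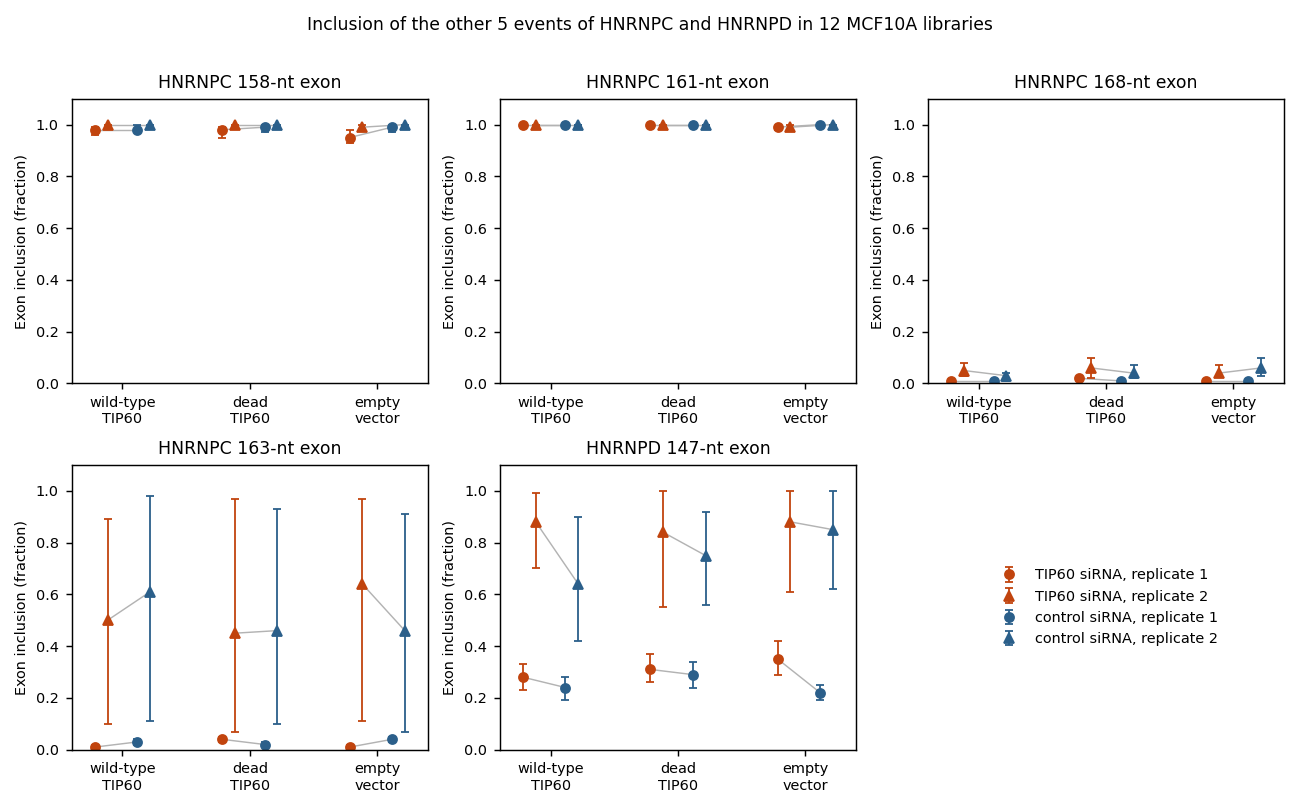
Inclusion (fraction, y axis from 0) of the other HNRNPC events and the 147-nt HNRNPD exon in 12 libraries, with symbols, bars and lines as for the 4 exons above. The 158-nt and 161-nt events lie at 0.95 to 1 and the 168-nt exon at 0.01 to 0.06. Deposited values of the 163-nt HNRNPC and 147-nt HNRNPD exons differ more between replicate numbers than between siRNAs. Those of the 163-nt exon in replicate 2 rest on 5 to 18 form-specific reads and cannot be read as a level. The 147-nt exon is higher under TIP60 siRNA in all 6 pairs.

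HNRNPD encodes AUF1, which binds AU-rich elements of mRNA and is known for its part in their decay. Its isoforms differ by the 57-nt exon near the N-terminus and the 147-nt exon near the C-terminus. The inclusion of the 57-nt exon under TIP60 siRNA was 0.95 and 0.89 in wild-type TIP60 cells, 0.97 and 0.89 in dead TIP60 cells, and 0.94 and 0.89 in empty-vector cells. Under control siRNA it was 0.84 and 0.81, 0.91 and 0.86, and 0.92 and 0.83. All TIP60-siRNA libraries were above all control-siRNA libraries within each replicate set, but not over both sets together.

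The averaged difference of the 57-nt HNRNPD exon was 0.06 ± 0.024 (SE) without the block (limma adjusted p = 0.359) and 0.06 ± 0.00838 with it (0.0185). With the block, adjusted p ran from 0.018 to 0.0676 when 1 library was left out, and the call ended without either TIP60-siRNA library of wild-type TIP60, either control-siRNA library of dead TIP60 or replicate 1 of dead TIP60 with TIP60 siRNA. Few reads carried it: those fitting only the form without the exon numbered 10 to 27 under TIP60 siRNA and 31 to 43 under control siRNA. Their RPM ratio in pairs was 0.294 to 0.672 (median 0.478), while that of reads fitting only the form with the exon was 0.643 to 1.23 (median 0.887) and lay on both sides of 1.

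The 147-nt HNRNPD exon (chr4:82356537-82356683, minus strand) is exon 7 of HNRNPD-201, adds 49 codons (355 residues with it, 306 without) and is untranslated in 1 of its 3 transcripts. Its inclusion under TIP60 siRNA was 0.28 and 0.88 in wild-type TIP60 cells, 0.31 and 0.84 in dead TIP60 cells, and 0.35 and 0.88 in empty-vector cells. Under control siRNA it was 0.24 and 0.64, 0.29 and 0.75, and 0.22 and 0.85. The replicate sets differed by more than the siRNAs. In replicate 2 only 0 to 3 reads fitted the form without the exon, against 69 to 170 in replicate 1. All 6 pairs were higher under TIP60 siRNA, but the averaged difference of 0.0917 did not pass in limma without the block (SE 0.2, adjusted p = 0.993) or with it (SE 0.0318, 0.181).

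No event of the 4 genes passed in any of the 3 differences between lines or in either construct comparison under control siRNA, in either fit. In these comparisons 0 of the 2695 tested events passed. At an unadjusted limma p under 0.05 there were 23 to 46 without the block and 78 to 121 with it. The 3 differences between lines share libraries. Over the 8 events they ran from −0.085 to 0.06. Cells with wild-type TIP60 differed from empty-vector cells under control siRNA by −0.015 ± 0.0535 for HNRNPA1, −0.05 ± 0.102 for HNRNPA2B1, 0.005 ± 0.016 for the 26-nt HNRNPC exon and −0.05 ± 0.0416 for the 57-nt HNRNPD exon (SE). Cells with dead TIP60 differed from them by −0.005 ± 0.0535, −0.03 ± 0.102, 0.015 ± 0.016 and 0.01 ± 0.0416 in the same order. With these errors a difference as large as the siRNA difference could have failed to pass for each of these 4 exons. For the 26-nt HNRNPC exon, the siRNA difference of −0.09 in empty-vector cells, with the same SE, did not pass without the block. The construct differences of that exon, 0.005 and 0.015, were all the same small beside its averaged siRNA difference of −0.0983.

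Total reads of the events, those fitting either form, were compared as log2(RPM + 0.5) over 4992 events. They cover an event's exons only and are not gene counts, and in bulk samples fewer cells of a kind and less RNA per cell cannot be told apart. The HNRNPA1 event had 651 and 96.2 RPM in wild-type TIP60 cells, 463 and 95.5 RPM in dead TIP60 cells and 563 and 100.1 RPM in empty-vector cells under TIP60 siRNA. Under control siRNA it had 701 and 179 RPM, 647 and 209 RPM, and 789 and 159 RPM. It was lower under TIP60 siRNA in all 6 pairs, at 0.456 to 0.929 times the control level. This total includes reads fitting only the form with the exon, which stood at 0.156 to 0.291 times their control. Reads fitting only the form without it stood at 1.02 to 1.58 times. Lower inclusion can thus lower the total by itself, so a lower total cannot be read as less HNRNPA1 RNA. The averaged log2 difference was −0.63 ± 0.78 (SE), with a limma adjusted p of 0.931 without the block, where 0.741% of events passed, and 0.0202 with it (SE 0.15), where 16.8% passed. With scaling to the median ratio of events, which shifts the median log2 difference of all events to 0.01, against −0.10 with RPM, it was −0.52 and did not pass with the block (0.0672). Leaving out 1 library moved the RPM value without the block between −1.09 and −0.17. The other 8 events had log2 differences of −0.37 to −0.15, and none passed in either fit.

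Of 32 other hnRNP family genes, 14 had an event and 8 had a tested one, 13 events in all. None of the 13 passed in the averaged siRNA comparison or in any 1 line, in either fit. Of all tested events 2.15% and 4.27% passed in the averaged comparison without and with the block, and at most 0.371% in 1 line, so that 0 of 13 is near the background. Their median difference was −0.0133, against 0.000833 for the 8 events of the 4 genes and −0.00667 for all tested events, and their median size was 0.015. Without the block the smallest p-values were those of HNRNPH1, a regulator that binds G-runs, at 0.958 ± 0.0147 under TIP60 siRNA and 0.938 ± 0.0194 under control siRNA, and HNRNPDL, a relative of HNRNPD, at 0.918 ± 0.0194 and 0.938 ± 0.0172 (SD, n = 6 each). SYNCRIP (hnRNP Q) had 0.963 ± 0.0137 and 0.973 ± 0.00816, and KHDRBS1 (SAM68) had 0.947 ± 0.0225 and 0.962 ± 0.0223. Their limma adjusted p-values without the block were 0.554, 0.652, 0.785 and 0.886. With the block the smallest p-value was that of a 1089-nt exon event of MATR3, named after its values were seen, with 0.607 ± 0.118 and 0.692 ± 0.175 (limma adjusted p = 0.135). Another event with the same MATR3 exon had 0.948 ± 0.0325 and 0.962 ± 0.0271 (limma adjusted p with the block = 0.693).

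**Figure D4:**
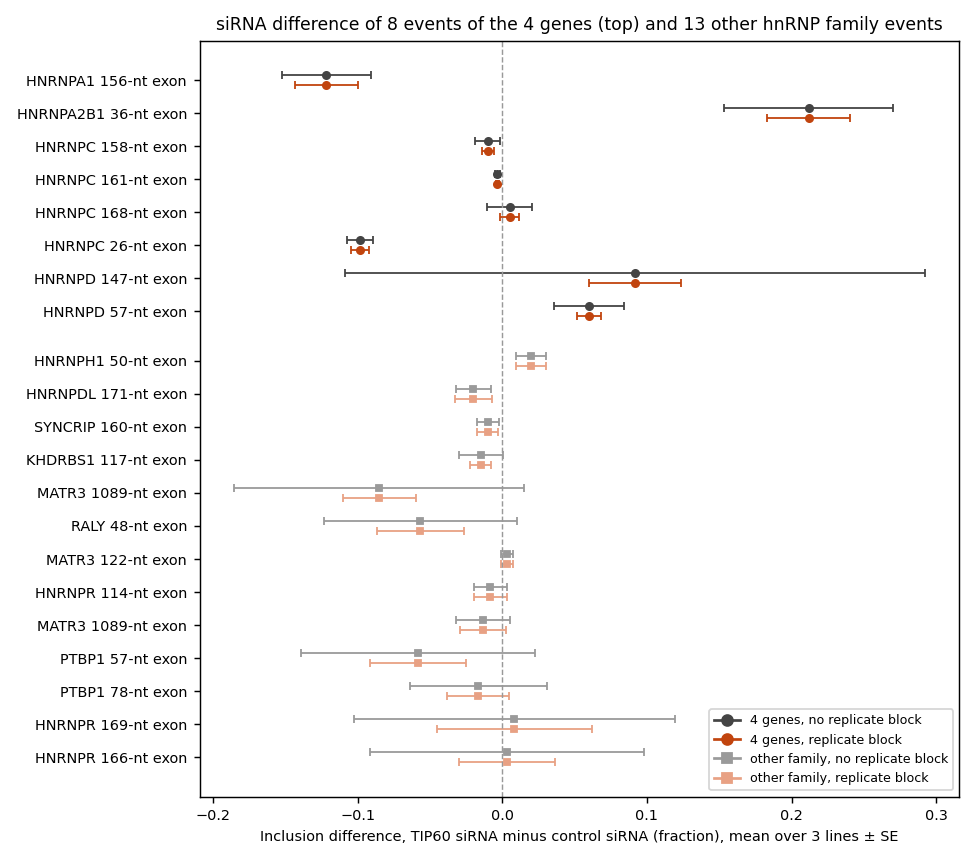
Mean difference in inclusion over 3 lines, TIP60 siRNA minus control siRNA (x axis, fraction, bars ± SE), for 8 events of the 4 genes (top) and 13 events of other hnRNP family genes, in the fit without the replicate block (dark or grey) and with it (orange). HNRNPA1 and the 26-nt HNRNPC exon lie at −0.122 and −0.0983, HNRNPA2B1 at 0.212, and the other family events between −0.085 and 0.02.

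The 4 exons share few features of structure. Their lengths of 156, 36, 26 and 57 nt compare with a median of 126 nt over tested events, and 3 of the 4 are multiples of 3, as are 56.1% of tested exons. Their GC content ran from 30.8% for HNRNPC and 33.3% for HNRNPA2B1 to 57.9% for HNRNPD and 59% for HNRNPA1. The downstream intron had 577 nt for HNRNPA1, 98 nt for HNRNPA2B1, 29081 nt for HNRNPC and 11888 nt for HNRNPD, against a median of 1753 nt.

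Likeness to other genes' events was measured as the mean absolute difference of the 6 group means, each centred on its own mean, among 1553 tested events whose group means spanned at least 0.05. The nearest to HNRNPA1 were exons of NAB2 (0.01) and SLX1B (0.0106), to HNRNPA2B1 of STEAP3 (0.0233) and SPTAN1 (0.0325), to the 26-nt HNRNPC exon of MPZL1 (0.00889), and to the 57-nt HNRNPD exon of SMTN (0.00611) and YAF2 (0.01). The NAB2 exon, for instance, had a mean inclusion of 0.712 under TIP60 siRNA and 0.843 under control siRNA, and the STEAP3 exon 0.387 and 0.195. For the 147-nt HNRNPD exon they were ENTPD6 (0.0125) and SKA2 (0.0133). The group means of the 158-nt, 161-nt and 168-nt HNRNPC exons spanned only 0.01 to 0.025, and NIPSNAP2 was nearest to the 168-nt exon, ahead of GCHFR, and tied as nearest with MRPL52 for the 158-nt and with LRRC75A-AS1 for the 161-nt exon.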

How the data were processed

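Exon inclusion was analysed in 12 mRNA libraries of MCF10A cells. STAR and hg38 are named in the submitters' processing notes; no versions are given in the sources used here. Each deposited fraction is, per the file headers, the MISO posterior mean of inclusion with interval bounds, beside the numbers of reads fitting the form with the exon, without it, both or neither. From these, inclusion was compared with limma 3.58.1 (R 4.3.3): 6 groups, all 12 libraries, a variance trend on mean log2 form-specific reads, the robust option, and two-sided p-values adjusted by Benjamini-Hochberg over 2695 events with at least 10 form-specific reads in every library, at a threshold of 0.05. Event reads per 1000000 fitting reads (RPM) were compared as log2(RPM + 0.5). The simulated test of the inclusion fit without the block recovered 69 of 100 events changed by 0.2 and 6 of 100 changed by 0.1. It drew libraries with no shift between replicate sets, so these rates need not hold for either fit of the real libraries. Replicate numbers come from the sample titles. For all 15 pairs of groups the difference between replicates 1 and 2 correlated across events (r 0.706 to 0.779), so same-numbered libraries were treated as pairs, and the fit with the replicate number as a block is given beside results that it changes. The libraries' depth limits precision, and the read counts also differ between the replicate sets by more than counting error. The alternatives were other read minimums, log2 odds, read shares, a quasi-binomial model, libraries of 1 line, primary chromosomes, either replicate number alone, other scalings and each library left out. Combinations of the block with other settings or with a library left out were added after seeing the data. Named were all events of the 4 genes, KAT5, the 4 events of smallest p of the other family list and any past the threshold, and the 2 most alike events, of which 1 is not reported here. The genes, lists and rules were chosen with earlier results of these data known.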

Additional observations from a re-analysis of the deposited data

How the results depend on the processing

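The number of events past the threshold in the averaged comparison was 58 without the block (332 at an unadjusted p under 0.05) and 115 with it. It was 30 without a read minimum (136 with the block), 41 on log2 odds (214 with the block), 82 in the quasi-binomial model (373 with the block), and with 1 library left out 7 to 34 without the block and 41 to 124 with it. With the replicate block, HNRNPA1 (−0.122), HNRNPA2B1 (0.212) and the 57-nt HNRNPD exon (0.06) passed, also without a read minimum. On log2 odds HNRNPA1 passed at −2.28 with or without the block, and HNRNPA2B1 (1.88) and HNRNPD (1.00) with it, while the 26-nt HNRNPC exon (−0.753) did not pass without it. In the quasi-binomial model, in log2 odds, HNRNPA1 passed at −2.39, and with the block at −2.36. With the block HNRNPA2B1 (1.92), the 57-nt (0.936) and 147-nt (0.523) HNRNPD exons and the 158-nt (−1.74), 161-nt (−1.77) and 168-nt (0.846) HNRNPC exons also passed, the last 4 on few reads of 1 form; for all these changes the cause was not tested. With 1 library left out, in either fit, the averaged difference ran from −0.147 to −0.0967 for HNRNPA1, from 0.17 to 0.253 for HNRNPA2B1, from 0.045 to 0.075 for the 57-nt and from −0.0133 to 0.197 for the 147-nt HNRNPD exon, and from −0.00333 to 0.0133 for the 168-nt HNRNPC exon. The difference of the 57-nt HNRNPD exon in empty-vector cells then ran from −0.005 to 0.085. Log2 event reads turned sign in some of these fits, with ranges of −0.42 to 0.059 for HNRNPA2B1, −0.85 to 0.42 for the 168-nt and −1.03 to 0.32 for the 163-nt HNRNPC exon and −0.44 to 0.13 for the 147-nt HNRNPD exon, and kept it from −0.55 to −0.19 for the 26-nt HNRNPC and −0.56 to −0.031 for the 57-nt HNRNPD exon; without the block a missing library leaves the sets unequal. On the inclusion scale with the read minimum, the block changed no call of the other 5 tested events in the averaged comparison. Nor did it there change a call of any difference between lines or constructs. Within wild-type TIP60, dead TIP60 and empty-vector cells it called 4, 10 and 4 events, against 0, 1 and 1 without it (116, 182 and 178 at an unadjusted limma p under 0.05). Event reads were called for 37 of 4992 events without the block (20 lower, 17 higher) and 837 with it (536 lower, 301 higher), and with median-of-ratios scaling for 16 (6 lower, 10 higher) and 767 (405 lower, 362 higher). Depth limits the 163-nt and 168-nt HNRNPC and 147-nt HNRNPD exons, which had as few as 5, 25 and 80 form-specific reads in a library.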
